A study of Mus musculus with 3 samples.

Results

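The regions described here are stretches of the mouse genome that lay away from genes and held more Nkx2.2 signal in oligodendrocytes (OLs) than in oligodendrocyte progenitor cells (OPCs). A region was taken when the authors had assigned it no gene and no CpG island and when its log2((OL + 1)/(OPC + 1)) of average signal was 1 or more. Of the 37271 regions in the deposited table, 4316 (11.6%) met these conditions. They made up 40.6% of the 10636 regions without a gene or a CpG island, while 37.5% of all regions had such a ratio. The other regions of that kind were 1127 with a log2 ratio of -1 or less, called more-OPC regions below, and 5193 between the limits, called similar regions. A region without an assigned gene is called gene-less, and the 4316 regions are called more-OL regions.

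Both cell states came from C57BL/6 mice at postnatal day 7. OPCs were selected from dissociated cortex with an antibody to PDGFRA and were kept dividing by growth factors, namely 10 ng/mL PDGF-AA, 10 ng/mL CNTF and 1 ng/mL NT-3. OLs were made from such OPCs by taking away PDGF-AA and adding 40 ng/mL of the thyroid hormone T3 over 48 h. Nkx2.2 was precipitated with the same monoclonal antibody in both states, from 1.5e7 cells per library. Each state has 1 ChIP library, so a difference between states has no replicate check and no test between them is given. The third library, an input, was not analysed here. A binding assay does not measure marker expression, so the cell labels could not be checked against markers.

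Nkx2.2 is a homeodomain transcription factor of the oligodendrocyte lineage that is also known from the ventral neural tube and the pancreatic islet. It binds DNA directly and can recruit Groucho corepressors. Transcription factors often occupy enhancers and silencers that lie far from the gene they act on, and a position away from genes does not by itself say which gene, if any, a site serves. Table and labels hold no DNA sequence for these regions, so they are described by position and signal.

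The authors' window sets what "gene-less" means here. The farthest region that the table assigns upstream of a gene has its middle 10534 bp from the start. A gene-less region therefore does not lie within roughly 10 kb upstream of any start the authors used, and it lies outside annotated gene bodies. Gene starts were rebuilt from the deposited distances for 11555 of 14473 genes. A gene with no region in the table has no rebuilt start, and the nearest true gene can therefore be closer than stated.

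The more-OL regions had moderate OL signal and very little OPC signal. Because these signals chose the regions, they are given as a description. Average signal ranged from 3 to 56.4 in OL, with a median of 5.93 and quartiles of 4.65 and 8.40. In OPC it ranged from 0 to 15.9, with a median of 1.4 and quartiles of 1 and 2. At the highest point of a region, the peak signal had a median of 12 in OL and of 2 in OPC. The median log2 ratio of the averages was 1.56, with a range of 1 to 5.27. A ratio of 2 or more was reached by 1282 regions, of 3 or more by 152 and of 4 or more by 7. Among regions with an assigned gene 36.5% had a log2 ratio of 1 or more. Because the ratio is the rule, nothing is read from these shares.

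**Figure D1:**
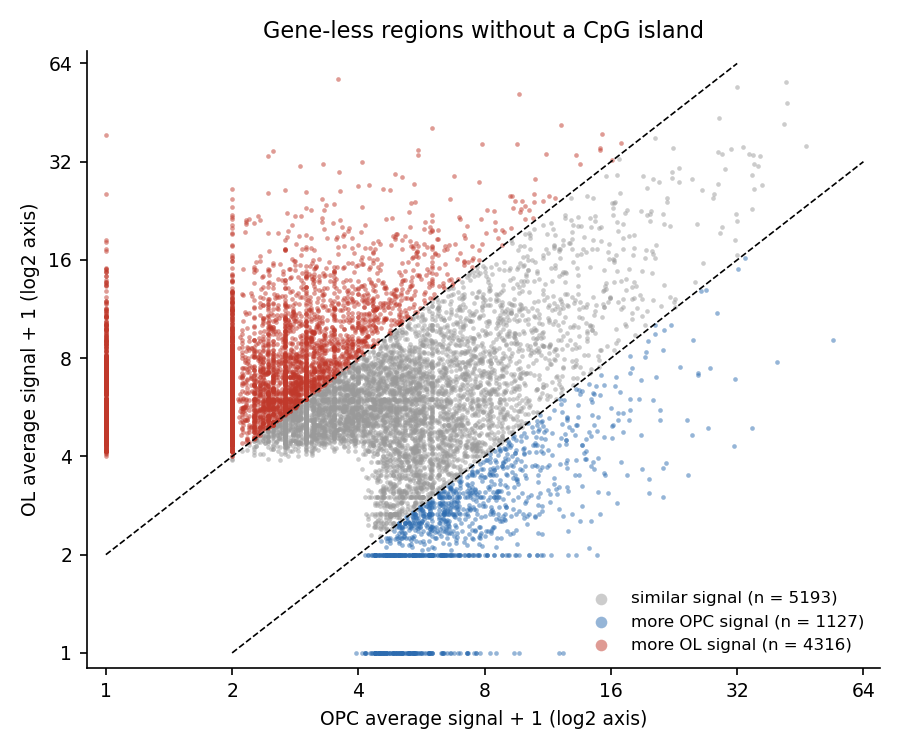
Average Nkx2.2 signal plus 1 in OPC (horizontal, log2 axis) and OL (vertical, log2 axis) for each gene-less region without a CpG island; dashed lines mark log2 ratios of 1 and -1, and red points are the 4316 more-OL regions. The columns of points at 1 and 2 on the OPC axis are regions listed at an average of 0 and of 1.

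The scale of the averages matters for how these ratios are read. In neither library does any average lie between 0 and 1. All 3018 regions with an OPC peak of 1 have an OPC average of exactly 1, as do the 513 regions with an OL peak of 1 in OL. An average made over every position of a region would fall below 1 in such cases, so the deposited averages look like means over covered positions, a definition that no source used here states. If so, an OPC average of 1 can stand for a single stretch of lowest signal, and the difference in total signal over a region is larger than its log2 ratio where OPC covers little of it. The peak signal does not have this property. The median ratio of OL to OPC peak was 5.80 over the 3526 more-OL regions with OPC signal above 0.

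Most of these regions were close to the bottom of the OPC scale. The OPC peak was listed at 0 in 790 regions (18.3%, exact 95% interval 17.2 to 19.5%), at 1 in 940, at 2 in 1069 and at 3 in 542. It lay between 4 and 9 in 812 regions and reached 10 or more in 163. Thus 3341 of the 4316 regions (77.4%, 76.1 to 78.6%) had an OPC peak of 3 or less. In all gene-less regions without a CpG island the OPC peak had a lower quartile of 2 and a median of 5. Over all regions these were 2 and 6. The rule itself favours low OPC signal, so the share is a description only. Among all gene-less regions without a CpG island an OPC average of 0 is listed at 7.43%, and among all regions at 6.04%. The gene-less ones are these same 790 regions, since OPC averages start at 1 in similar and at 2.95 in more-OPC regions. Where OPC is 0, an OL average of 3 or more always meets the rule. Nothing is therefore read from the difference between these shares. All intervals here cover counting error over regions only, and sequencing depth is not known.

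**Figure D2:**
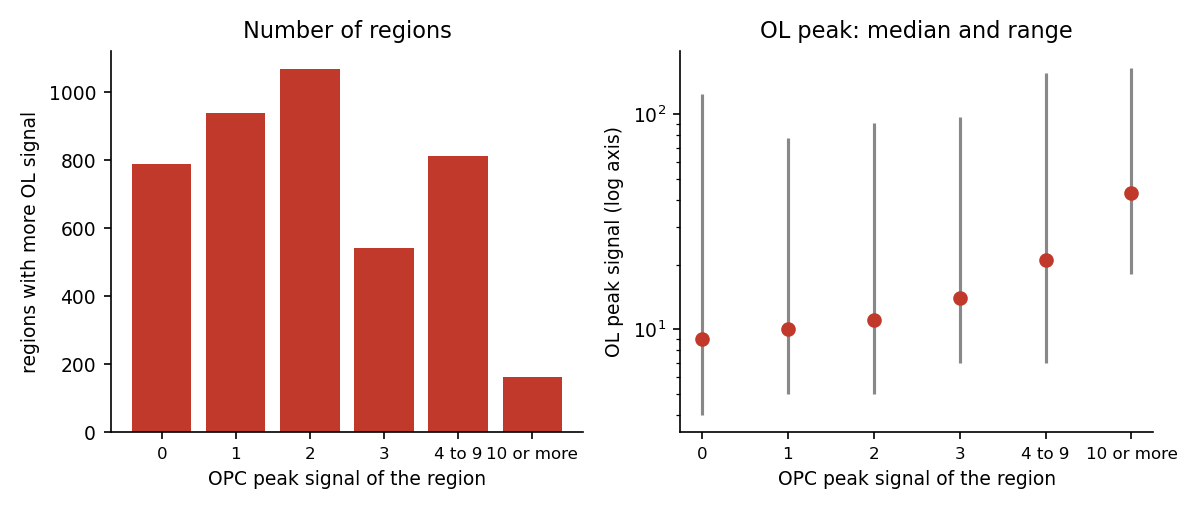
More-OL regions by their OPC peak signal: the number of regions in each class (left) and the median (point) and range (line) of their OL peak signal (right, log axis). The OL median moves from 9 where OPC is listed at 0 to 43 where the OPC peak is 10 or more.

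The median OL peak was 9 in the 790 regions listed at 0 in OPC, 11 in those with an OPC peak of 2, 21 in those between 4 and 9, and 43 in those of 10 or more. The regions fell into 3 kinds by their OPC state. In the first kind, the 790 regions listed at 0, the median OL average was 4.83 and the median length 449.5 bp. In the second, 3273 regions with OPC signal but no OPC call, these were 6 and 545 bp. In the third, 253 regions with a called interval in OPC as well, while 23.8% of all regions were called in both libraries, the median was 13.6 in OL and 4.46 in OPC, and the median length was 802 bp. Regions of the third kind had the lowest log2 ratios, with a median of 1.31 against 2.54 in the first kind. Where OPC is 0 the ratio depends on the OL average alone. With OL averages of 3 or more, no ratio in the first kind could be below 2. The higher ratios of the first kind are therefore built into the measure, and nothing is read from them. A log2 ratio rule with a pseudocount of 1 also asks for more OL signal where OPC is higher, so the order of the OL averages is partly built into the choice.

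Every more-OL region had an OL call, and 253 of them (5.86%, 5.18 to 6.6%) had an OPC call too. Over all regions 85.3% had an OL call. As a description, 40.5% of gene-less regions and 56.5% of similar regions had an OPC call, with or without an OL call, as did 38.6% of all regions. The call columns come from the same signal as the rule.

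The strongest OL signal among them was at chr15:39951740-39952671 (mm9), between the rebuilt starts of Lrp12, a gene of the LDL receptor family 177 kb away, and Zfpm2, a cofactor of GATA factors 534 kb away. Its average was 56.4 in OL and 2.57 in OPC, its peak 156 and 4, and it had no OPC call. Next came chr3:97033983-97034653, 13.9 kb from the start of Bcl9, a coactivator of beta-catenin in Wnt signalling. It had 50.7 in OL and 8.67 in OPC, and was called in both. The region with the highest OL peak, 164 against 46 in OPC, was chr4:119412068-119412865, 74.8 kb from the start of Hivep3, a zinc finger factor. Its averages were 40.4 and 11.2.

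A further region of the top 10 lay beside Pdgfra, the receptor for the mitogen that was withdrawn to make OLs. It was chr5:75619630-75620511, 71.8 kb downstream of the Pdgfra start on the side of Kit, another receptor tyrosine kinase gene. The nearest rebuilt start to this region was that of LOC100039125, 69.4 kb away. The region's average was 37.9 in OL and 14.2 in OPC, and its peak 143 and 46. The longest of all more-OL regions, 1707 bp at chr5:75742646-75744353, lay in the same interval, 195 kb from the Pdgfra start and 228 kb from that of Kit. It merged 3 called intervals and had 20.3 in OL and 8.98 in OPC. On the other side of Pdgfra, 38.3 kb upstream of its start, a weaker region had 4.94 in OL and was listed at 0 in OPC. Another more-OL region, 247 kb upstream, had 4.28 in OL and was also listed at 0. The gene-less region 88.9 kb upstream was similar in both states, with 5.90 in OL and 5.78 in OPC.

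The other regions of the top 10 by OL average lay on chromosomes 1, 6, 9, 10 and 14. At chr1:140320642-140321449, between Ptprc, the gene of the leukocyte phosphatase CD45, and the kinase gene Nek7, the averages were 39.5 in OL and 5 in OPC. At chr9:90608371-90609133 they were 35.2 and 6.91. At chr10:108759582-108760540, 312 kb from Syt1, the gene of a synaptic calcium sensor, they were 34.3 and 14.0. At chr14:56891255-56891980 they were 35.5 and 15.9, and at chr6:83807202-83808022 they were 35.3 and 8.57. In all, 8 of these 10 were called in both libraries, against 253 of all 4316. The 10 were picked by a value of the rule, so nothing is read from this contrast. Among the 100 regions of the whole table with the highest OL average, 38 were gene-less without a CpG island, 21 of them more-OL and 17 similar. Of all 37271 regions, 10636 were gene-less without a CpG island, and 11.6% were more-OL. The OL average is also part of the rule, so nothing is read from these counts.

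The largest ratios belonged to regions at which OPC was listed at 0. The region chr6:36562124-36562870 had an OL average of 37.5 and an OL peak of 124, with 0 in OPC on both measures. Its log2 ratio of 5.27 was the highest in the whole table. At chr11:64772226-64772627, 20 kb from Elac2, which encodes a tRNA-processing enzyme, the OL average was 24.5 and the OL peak 45. At chr3:64799810-64800372, 113 kb from the potassium channel subunit gene Kcnab1, these were 17.4 and 45. At chr10:96442308-96442683, 363 kb from Btg1, an inhibitor of proliferation, they were 17.2 and 35. At chr11:42825004-42825907, between Gabrb2, a GABA-A receptor subunit gene, and Atp10b, they were 16.3 and 39. At chr9:23348055-23348692, 321 kb from Bmper, a BMP-binding regulator, they were 16 and 52. Those on chromosomes 1, 5 and 17 had OL averages between 14 and 14.2. Of the 10 regions with the largest ratio among those above the median mean signal, 9 were listed at 0 in OPC, and the chr15 region given above was the other. No fold is given against 0.

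At the limit of the rule, the last 3 regions inside had a log2 ratio of 1 and averages of 5 and 2, 4 and 1.5, and 5.4 and 2.2 in OL and OPC. The first 3 outside had 4.33 and 1.67, 4.68 and 1.84, and 3.53 and 1.27. These pairs of values do not separate from each other, so the limit cuts through a continuous range.

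Length was not part of the rule, although it follows from how intervals were called and joined. Median length was 534 bp in the more-OL regions, with quartiles of 427 and 684 and a range of 218 to 1707 bp. Similar regions had a median of 574 bp and more-OPC regions 512 bp. Regions made of 1 interval give a fairer comparison, since all 253 regions with calls in both libraries merged 2 or more intervals. In those, the median was 519 bp in the 4063 more-OL regions, 495 bp in similar regions and 497 bp in more-OPC regions, with quartiles of 421 and 665, 421 and 610, and 412 and 620 bp. The distributions overlapped over most of their range, and the order of more-OL and similar regions depended on whether merged regions were kept. Longer more-OL regions had more signal, with Spearman's rho of 0.41 between length and OL average and of -0.02 between length and the log2 ratio. After the Pdgfra region, the next longest were 1633 bp at chr12:15645932-15647565, 177 kb from the pseudokinase gene Trib2, with 8.12 in OL and 2.31 in OPC, and 1561 bp at chr13:26555743-26557304, with 12.1 and 2.15. The next were 1537 bp at chr1:76689585-76691122, 821 kb from the ephrin receptor gene Epha4, with 5.42 and 1, and 1505 bp at chr13:26679096-26680601, with 8.87 and 1.84. These 4 were each a single interval called in OL only.

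More-OL regions occurred on all 20 chromosomes, from 86 on X and 115 on chromosome 19 to 362 on chromosome 1. Their share of gene-less regions ranged from 35.1% to 49.6% with a median of 40.4%. Of 20 exact 95% intervals, 4 did not contain the overall 40.6%. Chromosome 19 had 115 of 232 (49.6%, 43.0 to 56.2%) and chromosome 1 had 362 of 787 (46.0%, 42.5 to 49.6%). The lowest were chromosome 15 with 150 of 427 (35.1%, 30.6 to 39.9%) and chromosome 13 with 222 of 615 (36.1%, 32.3 to 40.0%). On chromosome 19 the regions with an assigned gene went the opposite way, and 31.5% of them had a log2 ratio of 1 or more, the lowest of the 20 chromosomes. On chromosome 1 that share was the highest, 39.4%. Regions close together are not independent, so these intervals are too narrow to some unknown degree.

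**Figure D3:**
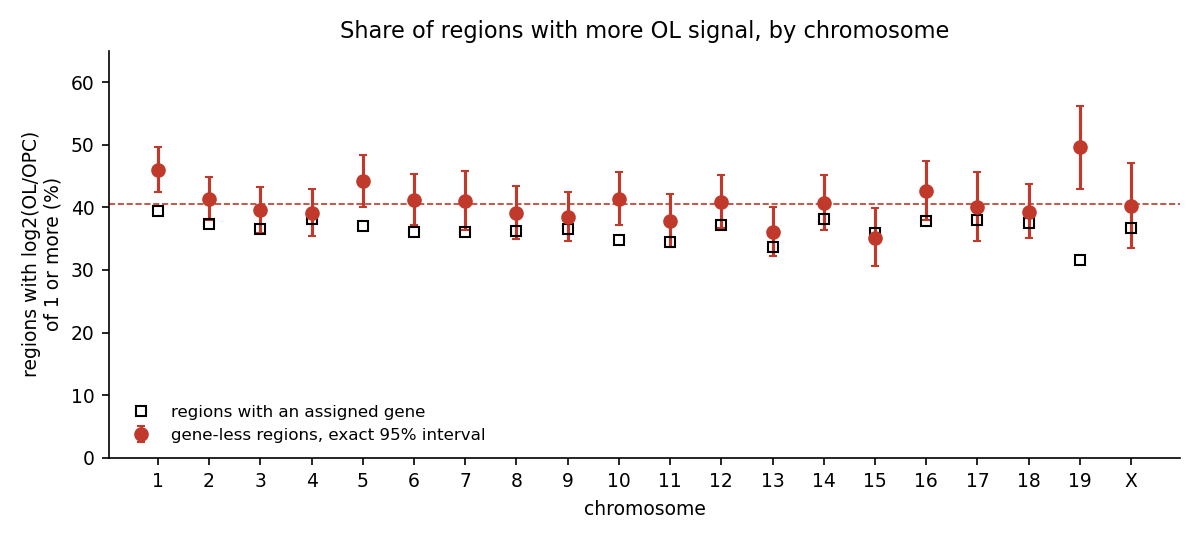
Percentage of gene-less regions that were more-OL regions on each chromosome (red points with exact 95% intervals, dashed line at the overall 40.6%) and percentage of regions with an assigned gene that had a log2 ratio of 1 or more (open squares). Chromosome 19 has the widest gap, 49.6% against 31.5%.

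The more-OL regions were common far from genes. Their median distance to the nearest rebuilt gene start was 144.7 kb, with quartiles of 60.6 and 332 kb, against 126 kb for similar and 157 kb for more-OPC regions. Beyond 500 kb from any rebuilt start lay 657 of them (15.2%, 14.2 to 16.3%), 11.9% (11.1 to 12.8%) of similar regions and 14.3% (12.3 to 16.5%) of more-OPC regions. Turned round, 37.1% (33.5 to 40.9%) of gene-less regions within 20 kb of a rebuilt start were more-OL. This was 37.8% between 20 and 50 kb, 39.6% between 50 and 100 kb, 41.1% between 100 and 200 kb, 40.7% (38.8 to 42.6%) between 200 and 500 kb and 45.7% (43.1 to 48.3%) beyond 500 kb. The share of more-OPC regions was also lowest within 20 kb, at 8.01% (6.09 to 10.3%), and was 11.2% (9.62 to 12.9%) beyond 500 kb. The signal moved with distance too, since the median OPC average of all gene-less regions was 3.31 within 20 kb and 2.50 beyond 500 kb, and the OL median 5 and 4.75. The part of signal level in the change of share was not tested. The more-OL region farthest from a rebuilt start, a region singled out after its value was seen, was chr1:112365687-112366284, 3670 kb from Vps4b, with 6.67 in OL and 1 in OPC.

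Another more-OL region lay within 100 kb of 2309 of the 4316 (53.5%, 52.0 to 55.0%), and the median distance to the nearest was 84.7 kb. Similar regions, which are more numerous, had another of their kind within 100 kb in 60.2%, and the fewer more-OPC regions in 28.0%. No other region of any kind lay within 100 kb of 504 more-OL regions (11.7%, 10.7 to 12.7%), which was the case for 8.55% (7.80 to 9.34%) of similar and 10.2% (8.50 to 12.1%) of more-OPC regions. In windows of 1 Mb with 1 or 2 gene-less regions, 43.0% (39.9 to 46.2%) of these were more-OL, and in windows with 10 or more, 39.0% (37.3 to 40.7%).

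The nearest gene-less neighbours of more-OL regions were set beside the 40.6% of all gene-less regions that were more-OL. Of 1179 more-OL regions whose nearest gene-less region lay within 10 kb, that neighbour was more-OL in 527 (44.7%, 41.8 to 47.6%). The neighbour of a similar region at this distance was more-OL in 35.7% (33.4 to 38.1%), and that of a more-OPC region in 27.1% (22.3 to 32.4%). At 10 to 20 kb these were 40.6% (37.2 to 44.2%) for similar and 29.3% (22.6 to 36.9%) for more-OPC regions. The share for more-OL regions did not fall steadily with distance. It was 42.0% (38.0 to 46.0%) at 10 to 20 kb, 48.4% at 20 to 50 kb and 45.7% at 50 to 100 kb. At 100 to 200 kb it was 45.6% (40.9 to 50.4%), and at 200 to 500 kb 40.4% (35.5 to 45.5%). The values at 10 to 20 kb and at 200 to 500 kb did not differ from 40.6% beyond their intervals. Pairs in which each is the other's nearest neighbour enter from both sides, as 484 of the 527 regions within 10 kb did, so that interval is too narrow.

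Regions with an assigned gene were compared in the same way, as they are other regions than the ones chosen. Of 4593 within 100 kb of a more-OL region, 1676 (36.5%, 35.1 to 37.9%) had a log2 ratio of 1 or more, the same as the 36.5% of all regions with an assigned gene. Near the other gene-less classes this share was lower. Within 100 kb it was 34.4% (33.2 to 35.6%) near similar regions and 33.4% (30.9 to 36.0%) near more-OPC regions. Closer in, 54 of the 111 within 10 kb of a more-OL region had such a ratio (48.6%, 39.0 to 58.3%). Of the distance classes near more-OL regions, only this one had an interval above the 36.5% background. Neighbouring regions are not independent, so the interval is too narrow. No other scaling or pseudocount was tried at 10 kb. Within 10 kb of similar regions the share was 30.6% (22.9 to 39.1%) of 134. Within 10 kb of more-OPC regions it was 4 of 22 (18.2%, 5.19 to 40.3%), an interval that overlaps the other 2. A region with an assigned gene can count near several classes. From 10 to 20 kb outward the share near more-OL regions was at the background, at 35.7% of 375 and 36.2% of 1518 for 20 to 50 kb. At 10 to 20 kb it was 28.9% (25.2 to 32.9%) of 550 near similar regions. Near more-OPC regions it was 27.0% (18.1 to 37.4%) of 89. At 20 to 50 kb the shares were 32.6% (30.5 to 34.7%) near similar and 33.7% (29.0 to 38.6%) near more-OPC regions. Near more-OL regions the median log2 ratio was 0.97 within 10 kb and 0.79 at 10 to 20 kb. These shares come from the same 2 libraries as the more-OL regions and share their depth and scaling.

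**Figure D4:**
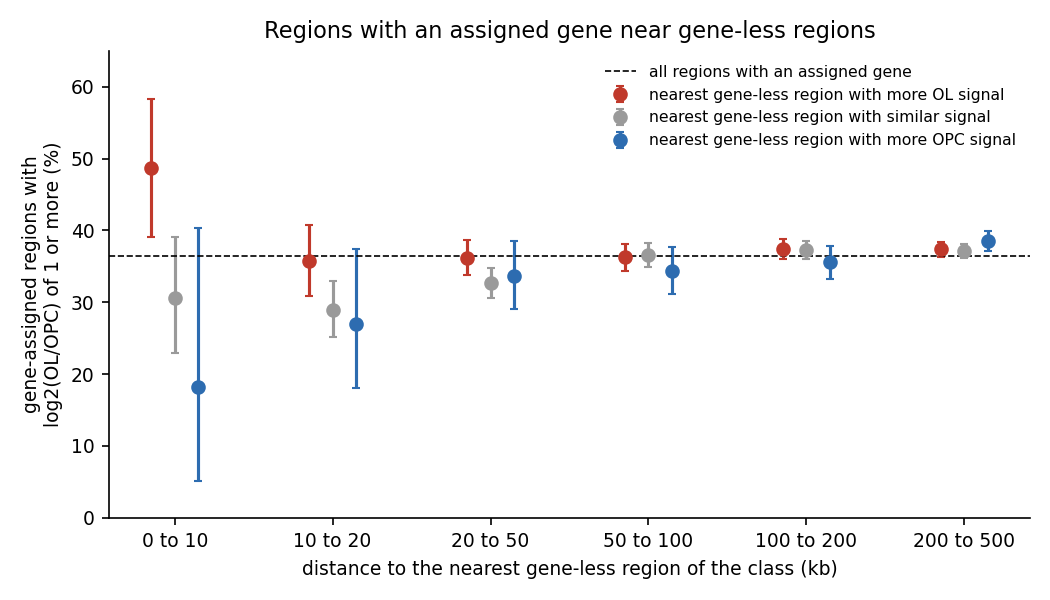
Percentage of regions with an assigned gene that had a log2 ratio of 1 or more, by distance (kb) to the nearest gene-less region of each class, with exact 95% intervals; the dashed line is the 36.5% of all regions with an assigned gene. Within 10 kb the shares were 48.6% near more-OL, 30.6% near similar and 18.2% (4 of 22) near more-OPC regions, and their intervals overlapped. By 100 to 200 kb all 3 lie between 35.6% and 37.4%.

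The window of 1 Mb with most more-OL regions was chr2:117000001-118000000. It held 13 of them among 14 gene-less regions and 18 regions in all. Most lie in the gap of rebuilt starts between 2610510H03Rik and Thbs1, the gene of thrombospondin 1, a matrix protein that activates TGF-beta. OL averages ran from 3.93 to 11.0 with a median of 5.83 and OPC averages from 0 to 3.44 with a median of 1.33, so the OL range lay wholly above the OPC range in regions chosen for that difference. The highest, chr2:117036175-117037095, lay 89.4 kb from Spred1, which encodes an inhibitor of Ras signalling, and had 11.0 in OL and 3.32 in OPC. Second was chr2:117511201-117512268, with 10.4 and 3.44, the only one of the 13 called in OPC. The region nearest to the Thbs1 start, 38.3 kb away, had 4.67 and 1, and the next, 62.7 kb away on the other side, had 7.09 in OL and was listed at 0 in OPC. The gene-less region left out of the 13 had 3.50 in OL and 2.17 in OPC.

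**Figure D5:**
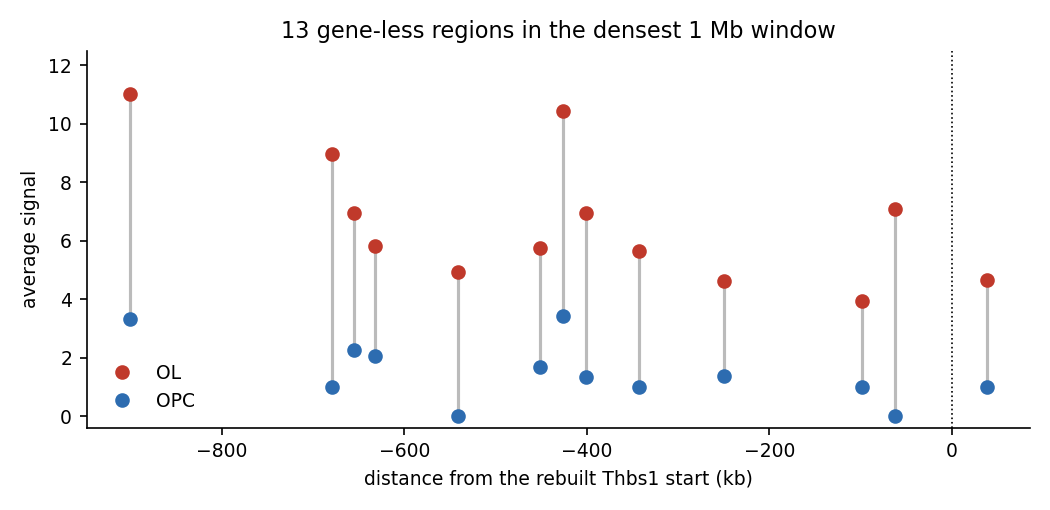
Average signal in OL (red) and OPC (blue) of the 13 more-OL regions in the densest 1 Mb window, by distance in kb from the rebuilt Thbs1 start (dotted line). OL values lie between 3.93 and 11.0 and OPC values between 0 and 3.44.

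A pair of windows held 11 more-OL regions each. The first was chr6:144000001-145000000, which starts beside Sox5, a SoxD factor known to restrain OPC differentiation, and ends before Bcat1, which encodes an aminotransferase of branched-chain amino acids. It had 17 gene-less regions, of which 11 were more-OL and none more-OPC. OL averages were 3.92 to 16.5 with a median of 7.11, OPC averages were 0 to 4.83 with a median of 1, and none of the 11 was called in OPC. The strongest was chr6:144910000-144910749, 114 kb from the Bcat1 start, with 16.5 in OL and 4.83 in OPC. The one nearest to the Sox5 start, 60.1 kb upstream, had 5.06 and 1.70.

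The other was chr1:135000001-136000000, where 11 of 18 gene-less regions were more-OL. OL averages ran from 3.95 to 20.2 with a median of 5.75, and OPC averages from 1 to 2.96 with a median of 1.67. Its strongest, chr1:135129500-135130074, lay 12.9 kb from the Plekha6 start and had 20.2 in OL and 1.33 in OPC. The next, chr1:135777217-135777674, lay 40.5 kb from the start of Prelp, the gene of a leucine-rich matrix proteoglycan, with 15.8 and 2.90. A further 7 windows held 10 more-OL regions each, and 643 windows held 1.

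Genes of the oligodendrocyte lineage had more-OL regions nearby in several cases. A start with such a region within 100 kb was found for 17.5% of the 11555 genes with a rebuilt start, and for 49.8% of those with any gene-less region within 100 kb. Among 20 OPC markers 7 had a more-OL region within 100 kb, out of 14 with any gene-less region. For the lineage's transcription factors it was 8 of 19 rebuilt starts, out of 11 with any gene-less region. For genes of newly formed oligodendrocytes it was 8 of 16, out of 13, and for myelin genes 2 of 14, out of 7. Astrocyte genes had 5 of 13, out of 5, neuron genes 1 of 9, out of 1, and liver and muscle genes 0 of 2. These counts cover only genes with a rebuilt start, which needs a region in the table. Such starts were found for 19 of 22 factors, 16 of 17 newly formed oligodendrocyte genes and 14 of 28 myelin genes. They were found for 13 of 15 astrocyte genes, 9 of 19 neuron genes and 2 of 17 liver and muscle genes. The median distance from a start to the nearest more-OL region was 239 kb for OPC markers, 186 kb for the factors, 106 kb for newly formed oligodendrocyte genes, 438 kb for myelin genes, 184 kb for astrocyte genes, 312 kb for neuron genes and 335 kb for all genes. Lists are not matched for the size of the gene-free space around their genes, and nothing is read as particular to a list.

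Of the OPC markers, Olig1 and Olig2, the neighbouring basic helix-loop-helix genes that specify the lineage, had the same 4 more-OL regions within 100 kb of their starts. The nearest to Olig1 lay 13.0 kb downstream of its start at chr16:91282613-91283442, with 6.20 in OL and 1 in OPC. The nearest to Olig2 lay 40.3 kb upstream, with 9 and 1.43. Hes5, a target of Notch signalling, also had 4, the nearest 16.5 kb upstream with 4.44 and 1.64. Tnr, the tenascin-R gene, had 3, the nearest 26.9 kb upstream with 6.82 and 2. Ccnd1, the gene of cyclin D1, had 2, the nearest 53.9 kb upstream with 5.29 in OL and a listed 0 in OPC.

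Among the transcription factors, the gene of Nkx2.2 itself had a more-OL region 19.1 kb upstream of its start, at chr2:147030971-147031429, with 5.64 in OL and 1.43 in OPC. Sox11 and Sox2, SoxC and SoxB factors of neural precursors, had 2 each. The nearest to Sox11 lay 48.2 kb downstream with 12.9 and 1.92, and the nearest to Sox2 31.6 kb upstream with 10.2 and 1. Regions 35.3 kb upstream of Tcf7l2, a Wnt effector of early differentiation, 36.5 kb upstream of Zeb2, a repressor needed for myelination, and 26.7 kb upstream of Sox4 had 4.32, 5.27 and 5.29 in OL and were listed at 0 in OPC. Myrf, the activator of myelin genes that the table lists as Gm98, had one 94.0 kb downstream with 6.36 and 2.56, and Prox1, a homeobox factor, 30.8 kb upstream with 5.69 and 2.

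Of the genes of newly formed oligodendrocytes, Nfasc, which encodes neurofascin, an axo-glial adhesion molecule, had a more-OL region 10.3 kb upstream with 10.9 in OL and 2.75 in OPC. Cdv3 had one 21.5 kb away with 13.0 and 1.58. Rras2, a Ras family gene, had one 44.4 kb upstream with 10.5 and 1, and Tns3, a tensin gene, one 97.1 kb upstream with 6.18 and 1.11. Enpp6, a choline phosphodiesterase gene, had one 48.4 kb upstream with 3.77 and 1. Regions upstream of Itpr2 (11.7 kb), Fyn (62.8 kb) and Bmp4 (71.2 kb) had 3.46, 3.86 and 4.14 in OL and were listed at 0 in OPC. The myelin genes with a region were Tspan2, a tetraspanin gene (26.1 kb upstream, 3.87 in OL and a listed 0 in OPC), and Ugt8a, which makes galactosylceramide of myelin (31.1 kb upstream, 5.21 and 1). The nearest of Slc1a3, the astrocyte glutamate transporter gene, was stronger than all of these, with 23.6 in OL and 5.63 in OPC and a call in both, 29.1 kb upstream of its start.

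How many regions count as more-OL depended on the scaling of the 2 libraries, which is not given in the sources used here. As deposited, 4316 gene-less regions lay on the OL side and 1127 on the OPC side. With the median log2 ratio of regions called in both libraries set to 0, a shift of 0.24, these were 3270 and 1557. With the median of all regions set to 0, a shift of 0.74, they were 1697 and 2460, and the larger side changed. Both smaller more-OL sets lay within the 4316, as they must, since each shift lowers every log2 ratio by the same amount.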

How the data were processed

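The deposited table lists regions that the authors made by joining intervals called separately in the OPC and OL libraries, per the file headers. The submitters' processing notes name BWA, MACS 1.4.2 and mm9. How calls were thresholded, whether the input entered and how libraries were scaled is not given in the sources used here. Values are the deposited average and peak signal per region and library. Calls, CpG islands and gene assignments are other numbers the authors deposited. Coordinates are printed as deposited, and whether starts count from 0 or 1 is not stated.

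From the averages log2((OL + 1)/(OPC + 1)) was taken, so the pseudocount is 1, and no filter was set. Distances run from middle to middle. A gene start was rebuilt where at least 2 regions fixed its strand (8016 genes, tolerance 2 bp), and otherwise set at the middle of a region within 5 kb of it (3539). The strand matched RefSeq's (GRCm38.p6) in 4584 of 4597 genes found there. The 2918 genes with only a farther region were left out. Shares carry exact Clopper-Pearson 95% intervals. Regions named were the 10 highest in OL, the 10 largest ratios above the median mean signal, the 5 longest, 3 on each side of the limit, those of the 3 fullest 1 Mb windows and those nearest to listed genes. Within a window or list only some are printed. Members and the 7 gene lists were chosen with earlier results of these data known. Functions for distances and starts were tested on simulated data. Python 3.11.15, pandas 2.3.3 and scipy 1.17.1 were used.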

Additional observations from a re-analysis of the deposited data

How the results depend on the processing

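Of 37 alternatives that could change a value, 22 stayed within 1.5 times a count or within the 95% interval of a share or median, and 15 moved further. Another 2, which asked for an OL call, could change nothing, since all 4316 regions have it. Each of the 20 chromosome shares under a log2 limit of 2 counted as 1 alternative. Most of the 22 were such shares, and most of the alternatives outside them moved further. The number of more-OL regions was 1150 with a pseudocount of 5, 1282 with a log2 limit of 2 and 1697 with the median of all regions set to 0. Their share within 100 kb of another was 39.2% for 50 kb, 67.9% for 200 kb and 22.2% with a limit of 2. The share of gene-assigned neighbours with a log2 ratio of 1 or more was 26.3% with shared regions centred, 7.94% with a pseudocount of 5 and 46.9% with an OL average of at least 5, beside 26.0%, 7.97% and 46.9% of all gene-assigned regions under the same settings. The median length was 519 bp over single intervals, and the median distance to a gene start 169 kb with a limit of 2. With that limit the share of more-OL regions was 7.64% on chromosome 3, 7.02% on 4, 4.68% on 9 and 3.74% on 11. The cause was not tested where the construction of the alternative, such as a stricter limit or another distance, does not show it. Peak in place of average signal gave 5643 regions, 4294 of them among the 4316. Without its fullest 1 Mb window, an alternative chosen after seeing the data, chromosome 19 had 47.7% instead of 49.6%. No paired analysis was possible because each state has 1 library. Unknown depth limits what a listed 0 in OPC can show.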

Other observations

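Gene-less regions that carry a CpG island fell outside the rule and differed from the rest. Of 293 such regions 50 (17.1%, exact 95% interval 12.9 to 21.9%) had a log2 ratio of 1 or more, against 40.6% of gene-less regions without an island, and 6 had a ratio of -1 or less. In OL their average signal had a median of 4.93 and in OPC of 3.42, beside 4.92 and 2.92 in gene-less regions without an island.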
